A study of Homo sapiens with 9 samples.

Results

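Accessible chromatin after short exposure to enzalutamide was compared with solvent in VCaP, an established human prostate cancer line. The data were the 6 ATAC-seq peak lists of the 2 VCaP groups among the 9 lists of the series. In VCaP_ENZ the cells were given 10 µM enzalutamide for 96 h, and in VCaP_DMSO they were given the solvent DMSO. Both groups have 3 libraries, come from 1 line with a wild-type genotype label, and were grown in DMEM with fetal bovine serum. The series title names chromatin accessibility and the androgen receptor as its subject, so the comparison asks which open chromatin moved with the drug. A peak is a place where the transposase Tn5 inserted sequencing adapters more often than around it, and each list gives the position of its peaks on hg19 and the authors' score for each. Overlapping peaks of the 6 lists (1 bp or more) were merged into regions, and a region was kept if at least 2 of 3 libraries of either group called it. This left 59308 regions on chromosomes 1 to 22 and X, against 66108 when all 9 lists were merged by the same rule. Whether the libraries of a group are separate cultures is not stated in the labels. A p-value here sets a difference between groups against the spread between these libraries, which may be technical, so it need not hold for new cultures. Read counts are not part of the lists, and the depth behind each list is unknown. Regions are named by their hg19 position, and no gene, exon or promoter is given for them because an annotation of that build was not used.

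The androgen receptor is a nuclear receptor that moves to the nucleus when it binds androgen and acts at enhancers, many of them opened with the help of the pioneer factor FOXA1. Enzalutamide competes with androgen for the receptor and hinders its move to the nucleus and its binding to DNA. VCaP cells carry extra copies of the receptor gene and the TMPRSS2-ERG fusion, which places the ETS factor ERG under androgen control, and they depend on androgen signalling for growth.

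The lists were of similar size. The VCaP_DMSO libraries had 57677, 54757 and 53799 peaks and the VCaP_ENZ libraries 54033, 61744 and 53646. VCaP_ENZ replicate 2 was the longest list of the 6, and the other VCaP_ENZ lists lay within or just below the VCaP_DMSO range. Median peak width was 450, 424 and 415 bp in VCaP_DMSO and 408, 443 and 406 bp in VCaP_ENZ. Of the 59308 regions, 83.9% ± 2.35 were called per VCaP_DMSO library and 84.9% ± 4.5 per VCaP_ENZ library (SD, n = 3 each). In two-sided exact permutation tests of 3 against 3 libraries, which cannot give a p below 0.1, p was 0.9 for peak number, 0.5 for median width and 0.8 for the share called.

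Most regions were open in both groups. All 6 libraries called 35176 regions, 59.3% of those kept, and these shared regions were strong. Their median score lay at the 67.1st percentile of a list, where the percentile of a peak is the share of that list's peaks with a lower score. Their median width was 774 bp. Here the width of a region is the span of all its merged peaks, which tends to grow with the number of libraries calling it. Widths of regions called by different numbers of libraries therefore do not compare the widths of their peaks. Each partial pattern was somewhat more frequent on the VCaP_ENZ side than its reverse. In 2 VCaP_DMSO and all 3 VCaP_ENZ libraries 3675 regions were called, and 3577 in all 3 VCaP_DMSO and 2 VCaP_ENZ libraries. For 1 VCaP_DMSO and 3 VCaP_ENZ libraries the count was 1537, against 1409 for the reverse. For 1 and 2 libraries it was 2906 against 2692, and for 0 and 2 it was 2141 against 1744. The part of the long list of VCaP_ENZ replicate 2 in this was not tested. The 9483 regions just inside the rule, called in 2 of 3 libraries of a group and at most 1 of the other, had a median list percentile of 18.6 and a median width of 372 bp. The 23509 merged regions just outside it, called in at most 1 library of each group, had 10.4 and 238 bp.

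**Figure D1:**
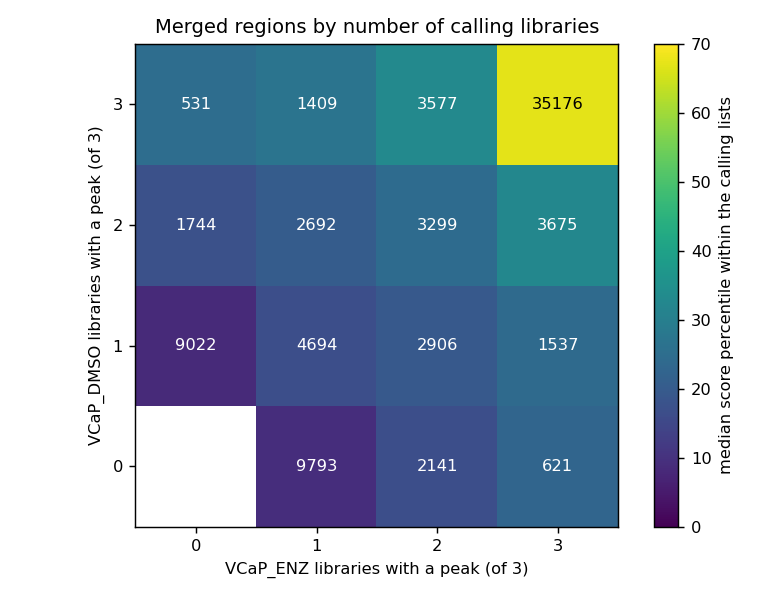
Number of merged regions by how many VCaP_DMSO libraries (vertical axis, 0 to 3) and VCaP_ENZ libraries (horizontal axis, 0 to 3) called them, printed in each cell, with the median score percentile within the calling lists as colour. The cell for all 6 libraries holds 35176 regions, and the corner cells for one group only hold 621 and 531.

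Regions open with the drug in every library and with the solvent in none were few and weak. There were 621 of them (1.05% of the 59308), and 531 (0.895%) showed the reverse. The median list percentile was 22.8 for the regions called with the drug only and 25.1 for those called with the solvent only. Above the 50th percentile of their lists lay 32 (5.15%) of the drug-only and 63 (11.9%) of the solvent-only regions. The pattern was kept under a 50% overlap, lists of equal length and a minimum score of 5 by 170 drug-only regions (27.4%) and 179 solvent-only regions (33.7%). These counts carry no test. The balance between the directions turned to 546 with the drug and 605 with the solvent when every list was limited to the same number of best peaks. Leaving out a library makes the rules unequal, since its own group then needs 2 calls and the other group 3, and absence is asked of 3 libraries in one direction and of 2 in the other. Without VCaP_DMSO replicate 2 or 3 the counts were 1068 and 1177 or 1022 and 1189, and without VCaP_ENZ replicate 1 or 3 they were 1467 and 828 or 1532 and 832. Without VCaP_ENZ replicate 2, the longest list, the counts were 1011 and 1354, and without VCaP_DMSO replicate 1 they were 1314 and 981.

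The drug-only regions that kept the pattern and ranked best lay on 5 chromosomes. The first, chr7:120195128-120195406, had scores of 19.2, 27.6 and 11.6 in the 3 VCaP_ENZ libraries, at the 70.3rd, 77.4th and 49.8th percentile of their lists. The next, chr3:126622473-126622709, stood at the 69.5th, 56.7th and 75.8th percentile with peaks of 209, 215 and 212 bp. Both were thus stronger than the middle of at least 2 of the 3 lists and yet had no peak in any VCaP_DMSO list. At chr7:46825616-46826178 the libraries differed, with the 75.6th and 68.3rd percentile in replicates 1 and 3 and the 19.1st in replicate 2. The remaining 3 were chr19:23663977-23664220, chr4:78230052-78230432 and chr13:32175972-32176336, with median percentiles of 63.7, 63.1 and 58.4.

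The solvent-only regions chosen by the same rule ranked higher. At chrX:61881460-61881875 the VCaP_DMSO scores were 30.1, 37.9 and 23.1, at the 78.2nd, 87.5th and 74.9th percentile. At chr16:2438758-2439196 they were 29.8, 21.2 and 27.7, at the 77.8th, 70.9th and 80.4th percentile. The small region chr11:65017864-65018075, 212 bp long, stood at the 64.7th, 80.1st and 77.1st percentile. All 9 of these values lay above the middle of their lists, and no VCaP_ENZ list had a peak there. The other 3 were chr3:161304499-161305074, chr5:57994823-57995615 and chr3:2911538-2912096, with median percentiles of 76.2, 72.9 and 69.2.

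Shared regions close to these places did not lean one way. The 204 shared regions within 10 kb of a drug-only region had a mean percentile of 46.8 with the solvent and 46.7 with the drug, counted as described next. For the 226 within 10 kb of a solvent-only region the means were 47.6 and 47.5. Of the former 6.37% ranked higher with the drug in every library and 8.33% lower, and of the latter 7.52% and 8.85%, which is near the shares over all shared regions given below.

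The strength of shared regions was compared by rank, because a peak caller's score moves with depth. In each library the 35176 shared regions were ranked by their best peak's score, and the rank was written as a percentile from 0 to 100. The difference between groups, VCaP_ENZ minus VCaP_DMSO, had an SD of 10.9 percentile points over regions, and 90% of regions lay between -18.0 and 18.3 points. In 2909 regions (8.27%) all 3 VCaP_ENZ percentiles lay above all 3 VCaP_DMSO percentiles, and in 2660 (7.56%) all lay below. No region passed an adjusted p of 0.05 in limma with Benjamini-Hochberg adjustment over all 35176 (smallest adjusted p 0.194), although 3758 (10.7%) had an unadjusted p under 0.05. On normal scores, which replace each rank with the matching quantile of a normal distribution and so spread out both ends, the same limma fit called 142 regions (0.404%), 72 higher (0.205%) and 70 lower (0.199%) with the drug, with 4044 (11.5%) at an unadjusted p under 0.05. Which regions are called therefore depends on the scale of the rank. By mean percentile over the 6 libraries, the calls on normal scores ran from 0 of 1809 regions below 10 to 27 of 3718 between 50 and 60 and 20 of 3202 above 90.

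The 8 regions with the largest rise lay on 6 chromosomes. The first, chr21:44075217-44076350, stood at the 11.5th, 7.2nd and 20.7th percentile in VCaP_DMSO and at the 74.4th, 67.0th and 64.5th in VCaP_ENZ, a difference of 55.5 ± 9.56 points (SE). It was thus among the weaker shared regions with the solvent and among the stronger ones with the drug, with no overlap between groups. The second, chr7:47221385-47221951, went from 19.4, 31.9 and 21.4 to 74.0, 81.0 and 77.7, a difference of 53.3 ± 9.66. There the peaks were also wider with the drug, with 300, 298 and 353 bases called against 491, 567 and 382. At chr21:36391733-36392229 the solvent values were near the floor, 0.9, 0.5 and 6.0, against 55.2, 46.2 and 42.9 with the drug. At chr7:75347705-75348229 the percentiles were 9.7, 18.1 and 13.4 against 73.2, 57.4 and 57.5. At chr15:39822952-39823700 they were 27.0, 19.2 and 20.4 against 71.0, 64.5 and 77.2. In each of these regions the lowest drug value stood well above the highest solvent value. The other 3 regions were chr13:104617991-104618716, chr4:124234135-124234949 and chr8:143309353-143309852, with differences of 46.6, 45.7 and 45.4 points. All 8 missed the threshold on percentiles (limma adjusted p 0.199 to 0.263) and all 8 passed it on normal scores. In width, 7 of the 8 had a positive difference and 2 were wider without overlap. The 8 were chosen by rank, so they cannot show whether width moved less than rank.

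The 8 regions with the largest fall lay on 8 chromosomes, with differences of 54.9 to 73.6 points downward against 45.4 to 55.5 upward. At chr21:28526957-28528004 the percentiles were 76.8, 76.9 and 81.1 with the solvent and 9.2, 1.5 and 3.3 with the drug, a difference of -73.6 ± 9.28 points. The called bases there went from 968, 1048 and 912 to 411, 319 and 360. Rank and width thus moved together in this region, from a broad peak in the upper part of the shared regions to a narrow one at the bottom. At chr1:162702282-162702838 the percentiles were 72.9, 63.4 and 83.0 against 2.9, 5.2 and 4.1, and the called bases 555, 348 and 482 against 202, 193 and 159. At chr4:75869294-75869791 the percentiles were 75.1, 72.5 and 68.7 against 23.5, 10.7 and 17.4, and the called bases 474, 345 and 459 against 174, 168 and 165. In both of these the drug peaks covered fewer bases than any solvent peak. At chr12:111505112-111505811 replicate 1 of VCaP_ENZ was less changed than the others, with 29.9 against 2.3 and 12.1, and its called width of 630 bases lay above the solvent values of 599, 541 and 617. At chr15:80996993-80997617 the drug values were likewise uneven, 22.7, 12.4 and 47.4, all below 77.9, 86.8 and 87.9 with the solvent. The other 3 regions were chr14:101971624-101972378, chr16:72057768-72058207 and chr10:106128199-106128584, with differences of -63.4, -62.6 and -56.8 points. All 8 missed the threshold on percentiles (limma adjusted p 0.194 to 0.242) and passed it on normal scores, and 7 of the 8 were also narrower with no overlap between groups.

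**Figure D2:**
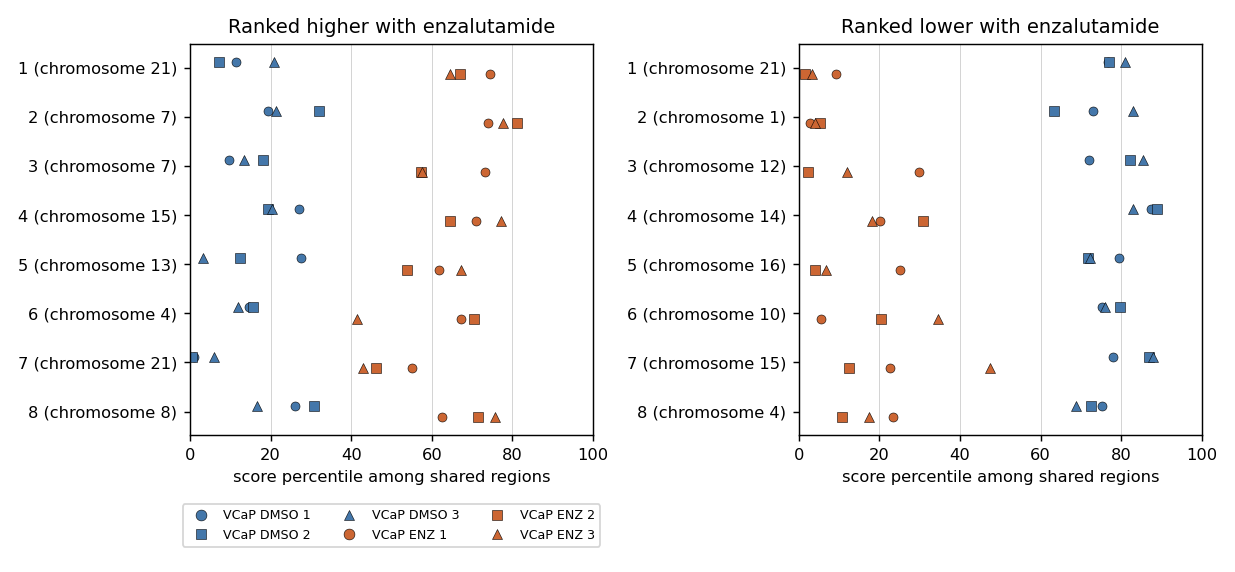
Score percentile among the 35176 shared regions (horizontal axis, 0 to 100) in each of the 6 libraries for the 8 regions with the largest rise (left) and the 8 with the largest fall (right), numbered by size of the difference. Blue marks VCaP_DMSO and orange VCaP_ENZ, with a symbol for each replicate; the groups do not overlap in any of the 16 regions, which were chosen for that.

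The strongest shared regions are given apart, since a mean percentile near 100 leaves room for only a small difference. Of the 142 regions called on normal scores, 20 had a mean percentile above 90, 11 higher and 9 lower with the drug. The 4 named here were chosen after their values were seen. At chr15:61975031-61976128 the percentiles were 86.6, 81.6 and 86.9 with the solvent and 94.5, 94.8 and 96.1 with the drug. At chr21:45299754-45300662 they were 87.2, 86.4 and 86.8 against 95.5, 95.2 and 95.6. Lower with the drug were chr8:134836846-134837599, with 96.4, 95.04 and 97.3 against 84.8, 89.5 and 83.7, and chr5:136527878-136528668, with 97.4, 97.6 and 96.0 against 90.3, 88.6 and 94.0. In all 4 the libraries of the groups did not overlap. Their adjusted p on normal scores lay between 0.00964 and 0.0474 in limma, and on percentiles all 4 missed the threshold.

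Called width gave no single region past the threshold. Width was the log2 of the bases called in a region, centred on each library's median. In limma 0 of 35176 shared regions passed (smallest adjusted p 0.452), with 2249 (6.39%) at an unadjusted p under 0.05. Without overlap, 1924 regions (5.47%) were wider with the drug and 1953 (5.55%) narrower. The largest gain was at chr1:110502549-110503778, with 307, 189 and 420 bases called with the solvent and 637, 1165 and 790 with the drug. At chr4:45650443-45651256 the called bases were 194, 342 and 169 against 626, 620 and 639. At chr12:57266993-57267844 they were 234, 193 and 347 against 688, 772 and 654. All 3 stood below the middle of the ranking in every VCaP_DMSO library, and the rank of the first hardly moved (mean percentile 24.9 with the solvent and 25.7 with the drug). The means were 3.89 and 12.8 in the region of chromosome 4 and 23.1 and 43.4 in that of chromosome 12. The largest loss was at chr11:1323902-1325836, with 1213, 789 and 1106 bases against 165, 533 and 399. The next were chr17:80029757-80032200, with 828, 1456 and 1481 against 299, 291 and 689, and chr6:111235543-111237285, with 872, 1363 and 1743 against 380, 495 and 391. These 3 also stood below the middle of the ranking in every VCaP_DMSO library, and their rank differences were -8.14, -5.32 and -25.8 points. For width, the 6 regions had limma adjusted p of 0.504 to 0.633.

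Rank and width are not independent, since both come from the same peaks. Across the shared regions the rank difference and the width difference had a correlation of 0.351, given as a description because the points share 6 libraries. Of the 2909 regions that ranked higher without overlap, 12.9% were also wider and 1.79% narrower without overlap. Of the 2660 that ranked lower, 2.07% were wider and 13.3% narrower. Among the 142 regions called on normal scores, 62 of the 72 higher ones had a positive width difference and 60 of the 70 lower ones a negative one, with median log2 differences of 0.18 and -0.41. Over all 35176 shared regions 17369 width differences were positive and 17807 negative. Of the 2909 regions that ranked higher without overlap 2013 had a positive one, and of the 2660 that ranked lower 1846 had a negative one.

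Libraries of a group ranked the shared regions more alike than libraries of different groups. Pearson's correlation of percentiles had a mean of 0.866 for the 6 pairs of the same group and of 0.840 for the 9 pairs of different groups. The difference was 0.0261 (one-sided exact permutation p = 0.1, as small as the 10 splits of 6 libraries allow). By rank, each of the 6 libraries was closest to a library of its own group. The margin was narrow for VCaP_ENZ replicate 2, at 0.863 to VCaP_ENZ replicate 1 and 0.861 to VCaP_DMSO replicate 1. By width the means were 0.793 and 0.780 (one-sided exact permutation p = 0.1), and only 3 of 6 libraries were closest to their own group. The highest correlation of widths lay across groups, between VCaP_DMSO replicate 1 and VCaP_ENZ replicate 2, at 0.815. These are the libraries with the widest peaks of their groups, with medians of 450 and 443 bp, and the part of peak width in the similarity was not tested.

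**Figure D3:**
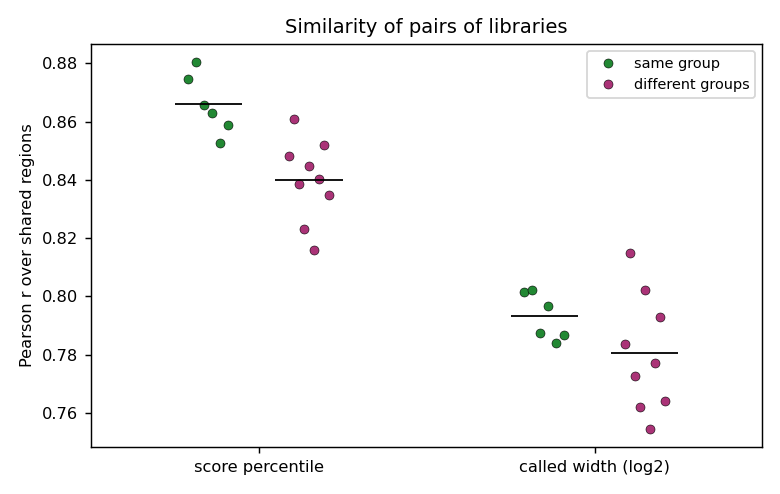
Pearson correlation between pairs of libraries over the 35176 shared regions (vertical axis), for score percentiles (left) and log2 called width (right), with a point per pair and a line at each mean. Pairs within a group average 0.866 by rank and pairs between groups 0.840, and by width the same means are 0.793 and 0.780.

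Whole chromosomes differed in rank, by small amounts that were alike in the libraries of a group. For each library the percentiles of the shared regions were averaged by chromosome, a summary chosen after seeing the data, and limma was fitted over the 23 chromosomes. It called 15 of 23 (65.2%), 8 higher with the drug (34.8%) and 7 lower (30.4%), and in all 15 the 6 library means did not overlap between groups. With percentiles taken among all peaks of a list, which keep library-wide offsets, 0 of 23 were called (smallest limma adjusted p 0.994, and 0 at an unadjusted p under 0.05). With those percentiles centred on each library's mean, an alternative added after seeing the data, 14 were called, 7 higher and 7 lower. Chromosome 21, with 660 shared regions, had means of 53.3, 53.7 and 53.5 with the solvent and 55.8, 55.1 and 55.8 with the drug, a rise of 2.09 ± 0.235 points (SE, limma adjusted p 5.93e-07). Chromosome 8, with 1790 regions, went from 50.4, 49.9 and 50.6 to 52.0, 51.8 and 52.2, a rise of 1.69 ± 0.234 (limma adjusted p 7.87e-06). Chromosome 4 rose by 1.29 ± 0.220 points. Chromosomes 5, 2, 13, 7 and 18 rose by 0.939, 0.769, 0.757, 0.685 and 0.674 points.

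The falls were led by chromosomes 19, 16 and 22. Chromosome 19, with 1543 regions, had means of 55.9, 56.6 and 56.1 with the solvent and 54.0, 53.9 and 53.5 with the drug, a difference of -2.39 ± 0.237 points (limma adjusted p 1.84e-07). Chromosome 16 went from 44.6, 45.02 and 44.6 to 43.5, 43.6 and 42.4, a difference of -1.63 ± 0.276. Chromosome 22 differed by -1.47 ± 0.275, and chromosomes 17, 15, 9 and 1 by -0.787, -0.725, -0.690 and -0.651. The 8 chromosomes that were not called had differences between -0.484 and 0.239 points. Percentiles are relative and average 50 in every library, so rises and falls must balance and a chromosome's level is known only against the others. For a single chromosome an exact test of 3 against 3 cannot go below 0.1, so the small limma p-values rest on a spread pooled over the 23 chromosomes.

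**Figure D4:**
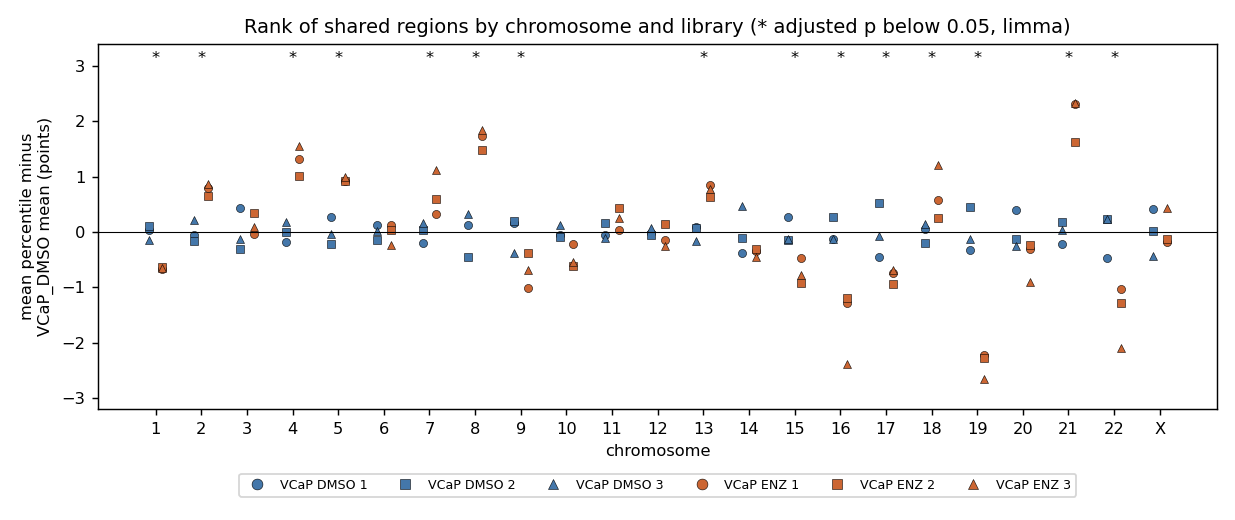
Mean score percentile of the shared regions of each chromosome in each library, minus the VCaP_DMSO mean (vertical axis, percentile points), for 23 chromosomes (horizontal axis). Blue points are VCaP_DMSO and orange VCaP_ENZ libraries, and a star marks an adjusted p below 0.05 in limma; chromosomes 21 and 8 stand highest with the drug and chromosome 19 lowest.

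The chromosome differences came from many regions each. On chromosome 21, 13.9% of shared regions ranked higher with the drug without overlap and 5.76% lower, against 8.27% and 7.56% over all shared regions. On chromosome 8 the shares were 11.7% and 5.92%, and on chromosome 19 they were 6.22% and 10.4%. In all, 9 chromosomes kept their call and direction under the 15 other settings of the same summary in which libraries had a common mean, and none did with uncentred percentiles among all peaks of a list. These 9 were chromosomes 4, 5, 8, 13 and 21 among those that rose and 1, 16, 19 and 22 among those that fell. Leaving out a single library ended the call of chromosome 7 (0.544 without VCaP_DMSO replicate 1 and 0.424 without VCaP_ENZ replicate 3), chromosome 9 (-0.478 without VCaP_ENZ replicate 1) and chromosome 15 (-0.510 without VCaP_DMSO replicate 1). It brought chromosome 20 past the threshold without VCaP_DMSO replicate 2 (-0.625) and without VCaP_ENZ replicate 1 (-0.698). With an overlap of at least 50%, chromosomes 2 (0.488), 15 (-0.404), 17 (-0.608) and 18 (0.439) were not called and chromosome 20 was (-1.33). Chromosome 18 also lost the call at a minimum score of 5 (0.299) and with 1 peak per library (0.571), on normal scores chromosome 7 lost it and chromosome 20 gained it, and with centred list percentiles chromosome 7 lost it (0.462).

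Classes of region width and of local peak density were compared by exact tests of 3 against 3 libraries. These cannot give a p below 0.1, so none of the 4 outermost classes could pass an adjusted p of 0.05. The shared regions were divided into 10 classes by the width of the merged region. The widest class, from 1346 to 5556 bp, had mean percentiles of 64.1, 66.5 and 63.3 with the solvent. With the drug they were 61.4, 63.7 and 60.7 (difference -2.72, exact permutation p = 0.2, 0.267 adjusted over 4 classes). The highest drug value there lay between the solvent values, so the groups overlapped. In the narrowest class the difference was -0.551 (exact permutation p = 0.8). The differences did not follow width in order: classes 8 and 9 were negative too (-0.675 and -1.19), and classes 2 to 7 were positive, by 0.399 to 1.29 points, with exact permutation p of 0.1 in classes 4, 5 and 7. Neighbours were counted among all kept regions, shared or not. Of 10 classes by neighbours, the sparsest had 0 to 6 other kept regions within 250 kb. Its means were 44.8, 44.0 and 44.5 with the solvent against 46.0, 45.7 and 46.5 with the drug, with no overlap (difference 1.65, exact permutation p = 0.1, adjusted 0.2). In the densest class, with 29 to 70 such neighbours, the difference was -1.16 (exact permutation p = 0.1, adjusted 0.2). There 7.77% of regions ranked higher without overlap and 8.25% lower. Between these, classes 2 to 5 were positive, by 0.0857 to 0.640 points, and classes 6 to 9 negative, from -0.201 to -1.26. The order was thus not strict, and class 9 was the lowest. The exact permutation p was 0.1 in classes 3, 4, 6, 8 and 9. Because chromosomes differ in these properties, percentiles were also centred within classes of width and neighbours before averaging. The differences were then 2.51 points on chromosome 21, 1.62 on chromosome 8, -1.73 on chromosome 19 and -1.65 on chromosome 16, and 15 chromosomes were again called. Chromosomes 17 (-0.174) and 18 (0.268) lost the call, and chromosomes 10 (-0.644) and X (-0.643) gained it.

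The calls and widths of whole chromosomes had mostly the same sign as the rank differences, with fewer chromosomes called. The share of a library's called regions that lay on a chromosome was tested in the same way, and 8 of 23 chromosomes (34.8%) passed in limma: 3, 4, 5 and 21 held a larger share with the drug and 16, 17, 19 and 20 a smaller one. Chromosome 19 held 4.05%, 4.07% and 4.13% of called regions with the solvent and 3.97%, 3.90% and 3.88% with the drug. Chromosome 21 held 1.78%, 1.73% and 1.78% against 1.82%, 1.81% and 1.81%. Of the 15 chromosomes called by rank, 12 had a difference of the same sign in calls and 14 in width. Mean width passed on 3 chromosomes (13%), namely 17, 19 and 22, all narrower with the drug. The count for calls was 4 without VCaP_DMSO replicate 2, 4 without VCaP_ENZ replicate 1, 3 without VCaP_ENZ replicate 2 and 5 without VCaP_ENZ replicate 3. For width it was 0 without VCaP_DMSO replicate 1, 1 without VCaP_DMSO replicate 2 or 3 and 5 without VCaP_ENZ replicate 2.

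The same summary was made along the chromosomes. The shared regions were averaged in 526 stretches of 5 Mb that held at least 20 of them. Limma called 2 (0.38%), and 118 (22.4%) had an unadjusted p under 0.05. The first was chromosome 2 from 165 to 170 Mb, where 40 regions had means of 45.2, 40.7 and 43.0 with the solvent and 51.2, 49.7 and 51.6 with the drug (7.86 points, limma adjusted p 0.0153). The second was chromosome 14 from 80 to 85 Mb, where 20 regions went from 51.6, 51.5 and 55.0 to 62.1, 61.1 and 59.6 (8.29 points, limma adjusted p 0.0153). In both stretches the lowest drug value lay above the highest solvent value, and chromosome 14 as a whole was not called.

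Over all 526 stretches 295 differences were positive and 231 negative, with 93 higher and 58 lower without overlap. On chromosome 19, 10 of 11 stretches had a negative difference and 7 of them did not overlap between groups. On chromosome 21, 5 of 6 stretches were positive, 3 without overlap. Chromosome 8 was uneven along its length. Before 35 Mb, 278 regions had means of 39.6, 39.2 and 39.0 with the solvent and 39.4, 38.7 and 37.6 with the drug, which overlap (difference -0.695 points), and 5 of 6 stretches were negative, 1 without overlap. From 35 Mb on, 1512 regions had 2.13 points and 21 of 23 stretches were positive. That division was chosen after the values were seen and carries no test. Between neighbouring regions the rank difference had a correlation of -0.154 over 586 pairs less than 1 kb apart, 0.0011 over 5600 pairs at 1 to 10 kb and 0.047 over 9740 pairs at 10 to 30 kb. At 30 to 100 kb it was 0.017 over 12269 pairs and at 100 to 1000 kb 0.0098 over 6726 pairs, all given as a description.

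**Figure D5:**
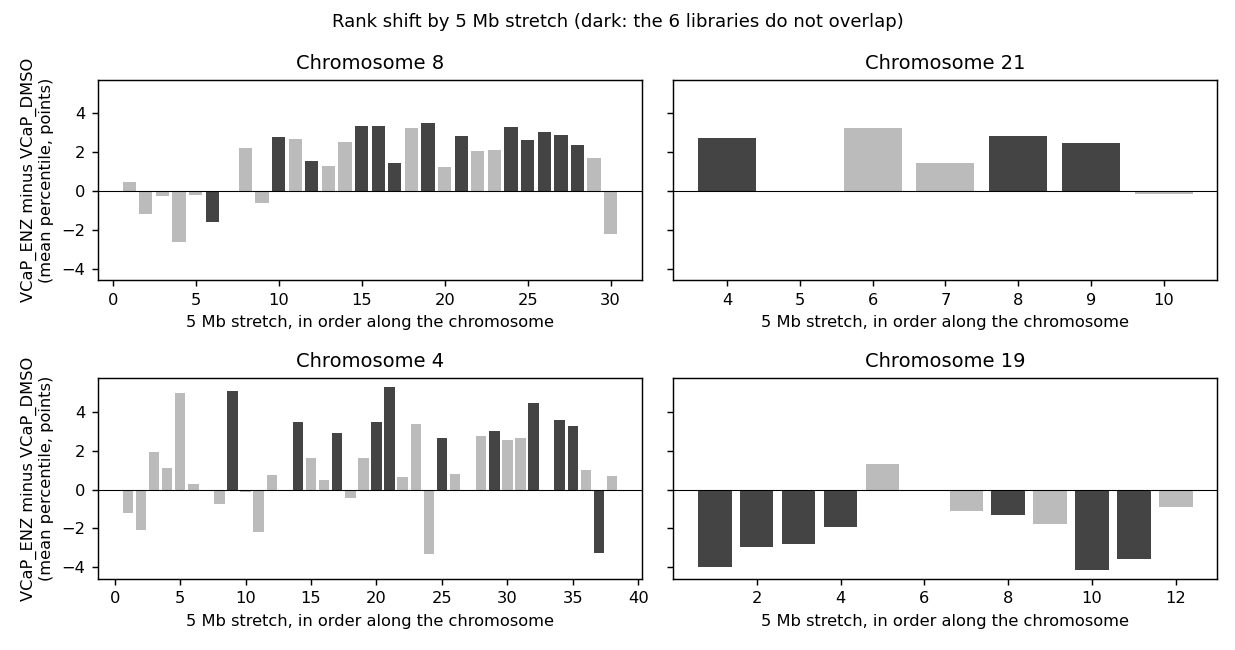
Mean percentile difference, VCaP_ENZ minus VCaP_DMSO (vertical axis, points), in 5 Mb stretches in order along chromosomes 8, 21, 4 and 19 (horizontal axis, stretch number), with dark bars where the 6 libraries do not overlap between groups. Stretches with under 20 shared regions are left blank; 10 of 11 bars of chromosome 19 lie below 0 and 5 of 6 bars of chromosome 21 above it.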

How the data were processed

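The authors deposited a peak list for each library, with position, name and score per peak. The nature of the deposited score is not stated, and it was never below 2 in any list, so scores served only as ranks or a minimum inside their own list. BWA 0.7.15-r1140, MACS2 2.2.7.1, HOMER 3.12 and hg19 are named, without roles, per the submitters' processing notes. For read filters and the Tn5 shift, no setting is given in the sources used here. The labels' protocols describe a bulk preparation from formaldehyde-crosslinked cells and a single-cell one, without saying which a list comes from; the lists were treated as bulk. Peaks off chromosomes 1 to 22 and X (130 to 167 per list) were left out.

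Lists were merged in Python 3.11.15 with numpy 2.4.6 and pandas 2.3.3, and exact permutation tests were two-sided (scipy 1.17.1). Differences at shared regions were fitted with limma 3.58.1 in R 4.3.3, with a variance trend, no covariate and Benjamini-Hochberg adjustment over all shared regions (threshold 0.05). The merge and the calls were checked on simulated lists with known answers. The limma fits were also run on simulated ranks with independent noise, which does not show how they are calibrated for these libraries. Named regions were the 8 per direction with the largest rank difference among those without overlap, the 3 per direction for width, and, of those called in 1 group only, the 6 per direction with the best median list percentile that kept the pattern in the 3 stricter settings. The members, lists and tests were chosen with earlier results of these data known. Same-numbered libraries did not deviate together (correlations 0.018 to 0.045 by rank), so numbers were not used as pairs. Other settings were a minimum score of 5, lists of equal length, 50% overlap, 500 bp windows about peak midpoints, regions with 1 peak per library, other scales, and each library left out. The summaries by chromosome, rank class, 5 Mb stretch, width, neighbours and similarity, the counts without overlap and the strong regions were added after seeing the data. The planned shares of peaks at promoters and with motifs, and the planned gene lists, were not run, since no genome or annotation of hg19 was used here.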

Additional observations from a re-analysis of the deposited data

How the results depend on the processing

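In all, 977 values were recomputed under other settings. For 842 the result was as reported, and 135 differed. Counts were taken as the same within 1.5 times. Tested values were taken as the same if the sign and the side of the 0.05 threshold were kept, and their size was not compared. With normal scores 142 shared regions were called by rank and without a variance trend 1, against 0; leaving out each library gave 0 throughout, by rank and by width. At a 50% overlap the regions without overlap in rank were 1830 and 1636, and in width 1164 and 1235, as fewer regions were tested. Asking for a call in 2 or more libraries of a group and none of the other gave 2762 regions for the drug and 2275 for the solvent. With percentiles among all peaks of a list 0 chromosomes were called by rank, against 15, and 14 once each library was centred. On that uncentred scale the signs of 6 (0.524), 10 (0.299), 12 (0.496), 14 (0.235), 15 (0.105) and 20 (0.144) turned, and X turned when centred (-0.062). With midpoint windows 1 chromosome was called by width, against 3; the cause was not tested. The share of regions called differed by -0.16 points with lists of equal length, and the narrowest class by 0.00583 with midpoint windows; the cause was not tested. Leaving out single libraries gave 1011 to 1532 drug-only and 828 to 1354 solvent-only regions, 4644 to 4995 and 4480 to 4928 without overlap in rank, and 3480 to 4709 and 3725 to 4089 in width, since 2 against 3 libraries overlap less often. It gave 13 to 16 chromosomes by rank, 0 to 5 by width and 3 to 11 by calls. Peak number differed by -1572 to 2478 (-1572 without VCaP_ENZ replicate 2), the share called by -4.12 to 4.12 points (-4.12 without VCaP_ENZ replicate 2) and the narrowest class by -1.23 to 0.647 (0.647 without VCaP_ENZ replicate 2 and 0.0288 without VCaP_DMSO replicate 3). Chromosomes that were not called changed sign: 3 to -0.0889 within classes and -0.249 at 50% overlap; 6 (-0.218 to 0.0805 with single libraries left out) to 0.0511 with 1 peak per library, 0.102 at a minimum score of 5, 0.0577 without VCaP_DMSO replicate 1 and 0.0805 without VCaP_ENZ replicate 3. Likewise 12 went to 0.0527 within classes and 0.162 at 50% overlap, and 14 to 0.146 at 50% overlap. X (-0.289 to 0.252 with single libraries left out) went to -0.065 with 1 peak per library, -0.0012 with normal scores, -0.643 within classes, -0.289 without VCaP_DMSO replicate 3 and -0.102 without VCaP_ENZ replicate 3. With the replicate number as a block, 0 regions were called by rank (3762 at an unadjusted p under 0.05) and 0 by width, 15 chromosomes by rank and 12 by calls. Depth is not known, so a rank near the bottom of a list may change with it.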
